A study of Homo sapiens with 8 samples.

Results

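The 9 STAT and JAK genes described here were STAT2, STAT3, STAT4, STAT5A, STAT5B, STAT6, JAK1, JAK2 and TYK2. They were taken by gene symbol from the Molm13 count table and by the same gene identifier from the THP1 table, and made up 9 of the 57722 genes that both tables list. Other genes of the 2 families were not analysed here. Poly(A) RNA was sequenced from Molm13 and THP1, human acute myeloid leukemia (AML) cell lines, and every group was described as induced with doxycycline (Dox). The 4 groups were Molm13 with a control hairpin (shCtrl, labelled WT), Molm13 with a hairpin against PRMT9 (shPRMT9, labelled PRMT9 knockdown), THP1 shCtrl and THP1 shPRMT9, with 2 libraries each. The names of the 4 THP1 libraries carry the letters OCI, which the labels do not explain; they are called THP1 here as labelled, and every THP1 value and every difference between the lines depends on that label. The length of the induction was not given in the labels. The labels also did not say whether the numbers 1 and 2 marked separate cultures or separate hairpins, so p-values measure only the spread between these libraries, which may be technical.

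Janus kinases (JAK1, JAK2 and TYK2 among them) sit on the inner side of cytokine receptors and phosphorylate the receptor tails and the STAT proteins that dock there. Phosphorylated STATs pair, move to the nucleus and switch on genes. In blood cells STAT2 with IRF9 serves interferons, STAT3 serves the interleukin-6 family, STAT4 serves interleukin-12, STAT5A and STAT5B serve growth factors such as GM-CSF, and STAT6 serves interleukin-4 and interleukin-13. The libraries measured transcript levels only, so phosphorylation and kinase activity were not read. In bulk RNA, a smaller number of cells that express a gene and less RNA of that gene per cell cannot be told apart.

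PRMT9, the target of the knockdown and an arginine methyltransferase, had 332 and 289 reads in Molm13 shCtrl and 41 and 56 in Molm13 shPRMT9. In THP1 the counts were 317 and 352 against 60 and 68. The log2 fold change was −2.68 in Molm13 and −2.29 in THP1. The libraries held between 18720950 and 27356870 counted reads. All 16 myeloid markers had reads in every library, whereas the 8 erythroid and megakaryocyte markers summed to less than 1 CPM (counts scaled to library depth) throughout. The myeloid markers summed to 1979 and 1994 CPM in Molm13 shCtrl and to 2806 and 2814 CPM in Molm13 shPRMT9, and to 2864 and 2817 CPM against 4260 and 4110 CPM in THP1. Of the myeloid markers tested, 12 of 15 were higher and 3 lower in Molm13, and 8 of 14 were higher and 4 lower in THP1. Over all genes tested, 33.4% were called higher and 33.5% lower in Molm13, and 19.0% and 18.6% in THP1. The markers ITGAM, CSF1R, LYZ and CD68 were among those higher in both lines. MPO and HOXA10 were lower in both, FCGR1A was lower in Molm13 alone of the 2 lines, and FLT3 and CEBPA were higher in Molm13 and lower in THP1. The 10 B cell markers summed to at most 124 CPM in Molm13 and 25.6 CPM in THP1, nearly all of it PAX5 and BANK1, with at most 1 read of MS4A1 in any library. The 11 T and NK cell markers summed to at most 227 and 188 CPM, nearly all of it NCAM1 and NKG7, with at most 1 read of CD3E in any library. The summed myeloid markers moved with the shPRMT9 label, and their part in the changes below was not tested.

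Most STAT and JAK genes were higher in shPRMT9 cells. In Molm13, 7 of 9 were higher (STAT2, STAT3, STAT4, STAT5A, STAT6, JAK1 and TYK2) and 2 were lower (STAT5B and JAK2) at a false discovery rate (FDR) below 0.05 in the quasi-likelihood test of edgeR, with p-values adjusted by Benjamini-Hochberg across the 16446 genes tested. Over all genes tested in Molm13, 33.4% were called higher and 33.5% lower. In THP1, 7 of 9 were higher (STAT2, STAT3, STAT5A, STAT6, JAK1, JAK2 and TYK2), STAT5B was lower and STAT4 was not called. Over all 16294 genes tested in THP1, 19.0% were called higher and 18.6% lower. Their median log2 fold change came to 0.42 for Molm13 and 0.39 for THP1, beside 0.00047 and −0.00064 over all genes tested.

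Fewer of the genes moved by a large factor. A gene was called differentially expressed (DEG) when its FDR was under 0.05, it differed at least 1.5-fold in either direction, and it passed 1 RPKM (reads per kilobase of exon, scaled to library depth) in at least 1 library. STAT2, STAT5A and STAT6 were DEGs in Molm13, where 11.4% of all genes tested were DEGs with higher and 11.3% with lower levels in shPRMT9. STAT2 and STAT5A were DEGs in THP1, where those shares were 3.83% and 2.39%. No STAT or JAK gene was a DEG with a lower level in either line. The shCtrl and shPRMT9 libraries did not overlap in CPM for 9 of 9 genes in Molm13 and 8 of 9 in THP1, but 81.9% of all genes tested in Molm13 and 66.0% in THP1 did not overlap either. At a fold limit of 2, STAT2 alone of the 9 genes remained a DEG in each line. The share of all genes tested that pass this limit is not given here, so nothing is read from that count.

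**Figure D1:**
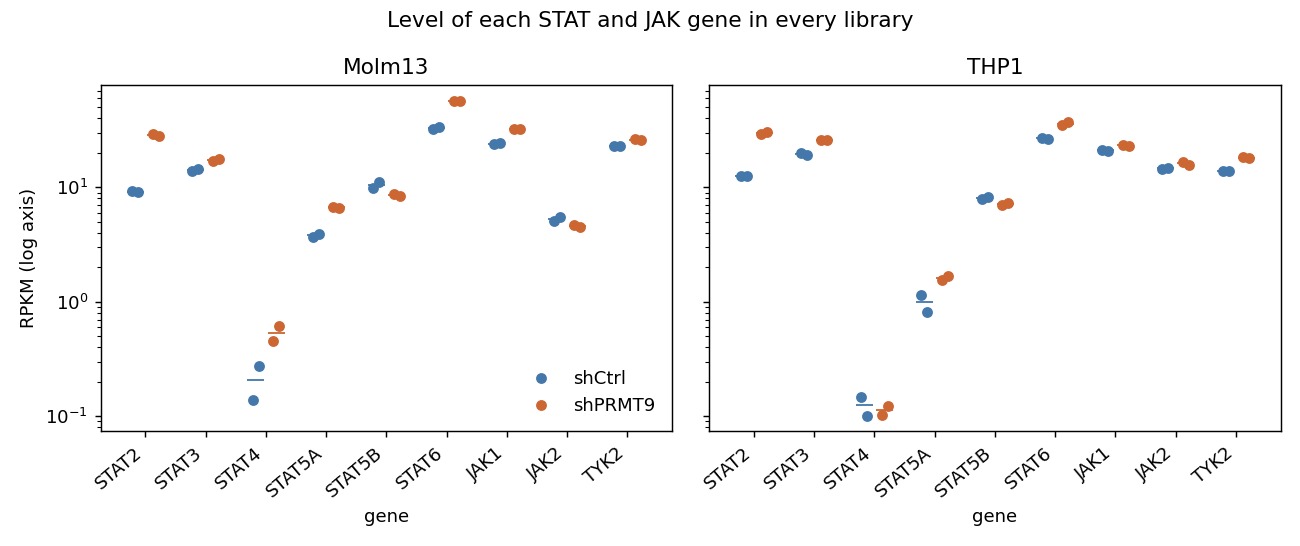
RPKM (log axis) of each STAT and JAK gene in every library, with Molm13 on the left and THP1 on the right, shCtrl in blue and shPRMT9 in orange, 1 point per library and a short line at the mean of the 2 libraries. STAT6 is the highest of the genes in each group, reaching 57.1 RPKM in Molm13 shPRMT9, and STAT4 is the lowest, below 1 RPKM in all 8 libraries.

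STAT2, the STAT that acts with IRF9 downstream of type I interferon receptors, showed the largest change of the 9 genes in each line by log2 fold change. Molm13 shCtrl libraries had 1151 and 1083 STAT2 reads and shPRMT9 libraries had 3341 and 3681. THP1 shCtrl libraries had 1975 and 2111 reads and shPRMT9 libraries had 4517 and 4654. In each line the shPRMT9 counts were all above the shCtrl counts. Mean STAT2 RPKM went from 9.13 ± 0.12 to 28.7 ± 0.65 in Molm13 and from 12.5 ± 0.13 to 30.0 ± 0.93 in THP1 (SD, n = 2 libraries per group), so the lines were closer to each other in shPRMT9 than in shCtrl cells as a ratio. STAT2 was 3.15-fold higher in Molm13 (log2 1.65, SE 0.039, adjusted p = 8.93e-34, edgeR's quasi-likelihood test). In THP1 it was 2.40-fold higher (log2 1.26, SE 0.040, adjusted p = 3.92e-20, same test). Of all genes tested, 3.37% had a larger log2 fold change than STAT2 in Molm13 and 2.32% in THP1. STAT2 is a member of the PRMT9 knockdown signature that the study took from genes changed in both of these lines, so its rise here is not independent evidence.

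STAT2 (ENSG00000170581) lies on the minus strand of chromosome 12 at 56341597 to 56360155 in hg38. The stretch before its start is shown because STAT2 changed the most. It is taken from RefSeq (GRCh38.p14, minus strand) at chr12:56360156-56360357, and ends before the start that the count table gives. Capitals mark GC boxes (GGGCGG on either strand), which Sp1-type factors bind.
STAT2: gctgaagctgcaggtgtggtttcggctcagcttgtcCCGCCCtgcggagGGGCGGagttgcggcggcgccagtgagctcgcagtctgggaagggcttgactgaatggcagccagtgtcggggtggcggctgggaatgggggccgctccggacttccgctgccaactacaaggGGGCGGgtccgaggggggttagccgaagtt
RefSeq windows of 300 bases (250 before to 50 after a start) were found for 9 of 9 genes, 17 windows in all. GGGCGG was in 7 of the 17 windows and in 45.0% of all 35116 windows, with 3 matches in that of STAT2. The letters GAAANNGAA, the core of the interferon-stimulated response element, were in 8.11% of all windows on either strand and in 0 of the 17. The palindrome TTCNNNGAA, the STAT dimer element known as GAS, was in 7.66% of all windows and also in 0 of the 17. These are letter matches in a short window and do not say where a factor binds. The 5-letter CCAAT box was in 4 of the 17 windows and in 34.6% of all windows.

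STAT6, which carries interleukin-4 and interleukin-13 signals, was the most abundant of the 9 genes per length in each group. It had 4777 and 4799 reads in Molm13 shCtrl and 7799 and 8858 in Molm13 shPRMT9. In THP1 it had 5039 and 5377 reads against 6453 and 6711. Both lines separated the groups fully, with the wider gap in Molm13. Mean STAT6 RPKM was 32.8 ± 1.1 and 57.0 ± 0.069 in Molm13 and 26.7 ± 0.32 and 36.0 ± 1.4 in THP1 (SD, n = 2). STAT6 was 1.74-fold higher in Molm13 (log2 0.80, SE 0.027) with an adjusted p of 7.5e-28, and 1.35-fold higher in THP1 (log2 0.43, SE 0.035) with an adjusted p of 4.94e-11 in edgeR's quasi-likelihood test. STAT6 (ENSG00000166888, minus strand) spans 57095408 to 57132139 on chromosome 12. Its span shares 3647 bases with LRP1 and 69 bases with NAB2 on the other strand. The strand setting of the counting was not given in the sources used here. LRP1 had at most 104 reads and NAB2 at most 473 in any library. The effect of the overlap on the STAT6 counts was not tested.

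STAT5A and STAT5B, close paralogs that serve GM-CSF, interleukin-3 and other growth factor receptors, went in opposite directions. STAT5A had 437 and 436 reads in Molm13 shCtrl and 729 and 811 in shPRMT9, and 170 and 131 against 224 and 238 in THP1. STAT5B had 1307 and 1408 reads in Molm13 shCtrl and 1063 and 1145 in shPRMT9, and 1315 and 1470 against 1137 and 1172 in THP1. STAT5B was therefore above STAT5A in read number in all 8 libraries, and the distance between them was smaller in shPRMT9 libraries. Mean STAT5A RPKM was 3.79 ± 0.11 and 6.69 ± 0.11 in Molm13 and 0.985 ± 0.24 and 1.60 ± 0.085 in THP1. Mean STAT5B RPKM was 10.5 ± 0.87 and 8.57 ± 0.33 in Molm13 and 8.08 ± 0.17 and 7.16 ± 0.22 in THP1. The ratio of STAT5A to STAT5B RPKM was 0.375 and 0.347 in Molm13 shCtrl and 0.768 and 0.794 in Molm13 shPRMT9. In THP1 this ratio was 0.145 and 0.0998 against 0.221 and 0.228, so the groups did not overlap in either line.

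In edgeR's quasi-likelihood test, STAT5A rose by a log2 fold change of 0.82 (SE 0.065, adjusted p = 5.85e-15) in Molm13 and 0.71 (SE 0.13, adjusted p = 8.47e-05) in THP1. STAT5B changed by −0.30 (SE 0.051, adjusted p = 1.82e-06) in Molm13 and −0.18 (SE 0.053, adjusted p = 0.00999) in THP1. The STAT5A value in THP1 leaned on 1 control: without THP1 shCtrl replicate 2 it was 0.47 and STAT5A was no longer a DEG, and without replicate 1 it was 0.97. The STAT5B call in THP1 was lost without shCtrl replicate 2 (−0.16, adjusted p = 0.0964) or shPRMT9 replicate 1 (−0.14, adjusted p = 0.0762), and with DESeq2 (adjusted p = 0.0724). Since the coding sequences of the paralogs are nearly identical in places, how reads that match both were counted could move the split between them. STAT5B and STAT5A lie next to each other on chromosome 17, STAT5B (ENSG00000173757) on the minus strand at 42199168 to 42276707 and STAT5A (ENSG00000126561) on the plus strand at 42287547 to 42311943, with 10839 bases between the spans. The bases before the most upstream RefSeq start of STAT5A are given to set beside those of STAT2, since both genes were DEGs in both lines. They lie at chr17:42287189-42287438 (GRCh38.p14, plus strand) and hold no GGGCGG or CCAAT, so no letter is in capitals. Of the 3 RefSeq windows of STAT5A, the first 2 held neither element, and the window of the most downstream start held 1 GC box.
STAT5A: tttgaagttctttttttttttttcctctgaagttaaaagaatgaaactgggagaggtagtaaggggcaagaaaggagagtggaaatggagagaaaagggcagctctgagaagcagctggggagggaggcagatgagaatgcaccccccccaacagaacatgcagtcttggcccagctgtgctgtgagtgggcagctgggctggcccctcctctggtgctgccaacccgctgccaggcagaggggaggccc

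**Figure D2:**
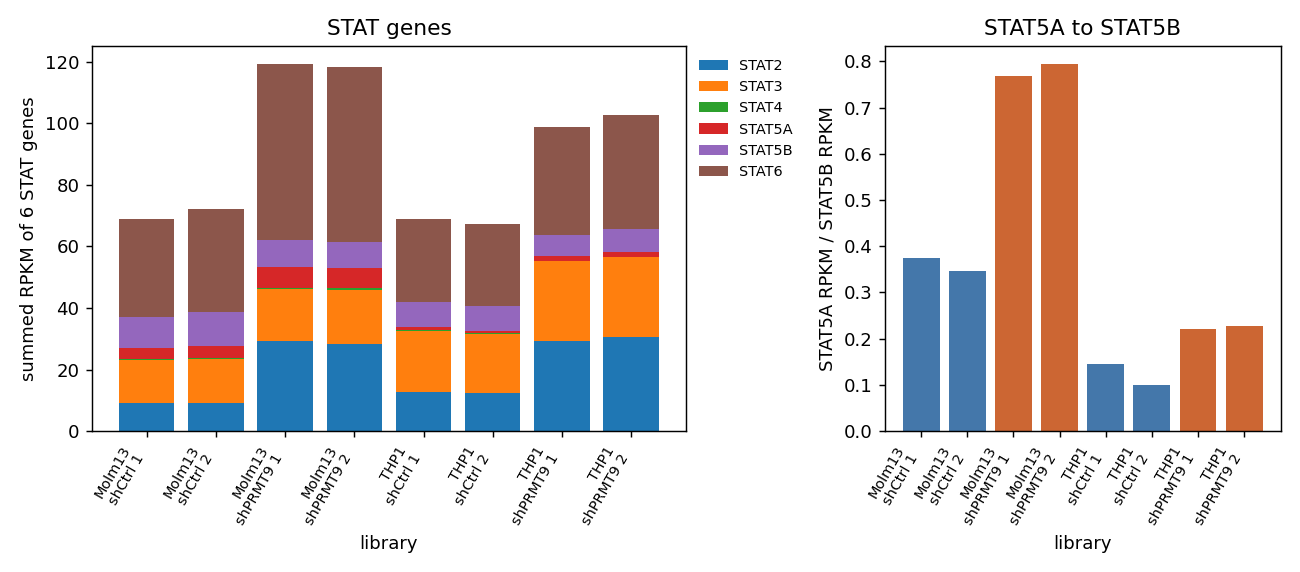
Left, summed RPKM of the 6 STAT genes in each library, stacked by gene. Right, ratio of STAT5A to STAT5B RPKM in each library (shCtrl in blue, shPRMT9 in orange). The stacks rise from 67.2 to 72.3 RPKM in shCtrl libraries to 98.8 to 119 RPKM in shPRMT9 libraries, and the ratio is highest, at 0.768 and 0.794, in Molm13 shPRMT9.

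STAT3, the main STAT of interleukin-6 family cytokines, was moderately higher in both lines. Its counts were 2511 and 2482 in Molm13 shCtrl and 2779 and 3286 in shPRMT9. In THP1 they were 4513 and 4710 against 5725 and 5659. Mean STAT3 RPKM went from 14.2 ± 0.31 to 17.2 ± 0.47 in Molm13 and from 19.6 ± 0.54 to 25.8 ± 0.046 in THP1. STAT3 was 1.21-fold higher in Molm13 (log2 0.28, SE 0.034, adjusted p = 1.47e-09) and 1.32-fold higher in THP1 (log2 0.40, SE 0.035, adjusted p = 2.6e-10) in edgeR's quasi-likelihood test. STAT3 (ENSG00000168610) lies at 42313324 to 42388568 on the minus strand of chromosome 17, 1380 bases beyond STAT5A. The 3 neighbours STAT5B, STAT5A and STAT3 thus changed in Molm13 by log2 values of −0.30, 0.82 and 0.28 in their order on the chromosome.

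STAT4, which carries interleukin-12 signals in lymphocytes, was close to the detection limit. Molm13 had 12 and 23 STAT4 reads in shCtrl and 36 and 56 in shPRMT9. THP1 had 16 and 12 reads in shCtrl and 11 and 13 in shPRMT9. The groups were separate in Molm13 and overlapped in THP1. Mean STAT4 RPKM stayed below 1, going from 0.207 ± 0.098 to 0.535 ± 0.12 in Molm13 and from 0.124 ± 0.032 to 0.113 ± 0.014 in THP1. STAT4 rose in Molm13 by a log2 fold change of 1.38 (SE 0.30, adjusted p = 9.22e-05, edgeR's quasi-likelihood test), and was no DEG there because of its RPKM. That value was 0.96 without Molm13 shCtrl replicate 1 and 1.96 without shCtrl replicate 2. In THP1 the log2 fold change was −0.13 (95% interval −0.99 to 0.74, adjusted p = 0.852), and 0.15 without THP1 shCtrl replicate 1. STAT4 (ENSG00000138378) spans 191029576 to 191151596 on the minus strand of chromosome 2. A change of STAT4 in THP1 inside the 95% interval above remained possible.

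JAK1, the kinase shared by interferon, interleukin-6 and common gamma chain receptors, had 3078 and 2999 reads in Molm13 shCtrl and 3791 and 4315 in shPRMT9. In THP1 it had 3450 and 3626 reads against 3719 and 3634. The THP1 counts of the 2 groups almost touched before scaling, and stood apart after scaling to depth (20.6 and 21.3 RPKM against 23.1 and 23.4 RPKM). Mean JAK1 RPKM in Molm13 went from 24.0 ± 0.28 to 32.1 ± 0.0097. JAK1 was 1.33-fold higher in Molm13 (log2 0.42, SE 0.031, adjusted p = 6.78e-16) and 1.11-fold higher in THP1 (log2 0.15, SE 0.037, adjusted p = 0.00201) by edgeR's quasi-likelihood test. Without THP1 shCtrl replicate 2 the THP1 value was 0.12 and its adjusted p in that test was 0.0524. JAK1 (ENSG00000162434) spans 64833229 to 64966504 on the minus strand of chromosome 1.

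TYK2, the kinase bound to IFNAR1 and to interleukin-12 and interleukin-10 receptors, was higher in both lines and more so in THP1. Its counts were 3152 and 3046 in Molm13 shCtrl and 3317 and 3720 in shPRMT9, and 2409 and 2591 against 3127 and 3023 in THP1. Mean TYK2 RPKM was 22.9 ± 0.14 and 26.0 ± 0.26 in Molm13 and 13.8 ± 0.086 and 18.1 ± 0.25 in THP1. The fold was 1.14 in Molm13 (log2 0.18, SE 0.032, adjusted p = 2.02e-06) and 1.31 in THP1 (log2 0.39, SE 0.040, adjusted p = 5.05e-09) in edgeR's quasi-likelihood test. TYK2 (ENSG00000105397) lies at 10350529 to 10380676 on the minus strand of chromosome 19. Its RefSeq window held 6 CCAAT boxes on the coding strand, the element bound by NF-Y, and no other window of the 9 genes held more than 2. The part before the start in the count table, at chr19:10380677-10380822 (GRCh38.p14, minus strand), is shown for this repeat, with CCAAT in capitals. It holds 3 of the 6 boxes, and the other 3 lie further downstream.
TYK2: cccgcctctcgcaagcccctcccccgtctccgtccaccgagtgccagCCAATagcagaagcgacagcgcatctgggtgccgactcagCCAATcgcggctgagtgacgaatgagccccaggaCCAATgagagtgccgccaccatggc

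JAK2, the kinase of GM-CSF, erythropoietin and thrombopoietin receptors and of an interferon-gamma receptor chain, went in opposite directions in the 2 lines. Molm13 had 636 and 660 JAK2 reads in shCtrl and 536 and 593 in shPRMT9. THP1 had 2268 and 2548 reads in shCtrl and 2576 and 2415 in shPRMT9. The THP1 counts overlapped between groups. After scaling to depth, JAK2 RPKM fell from 5.04 and 5.46 to 4.64 and 4.51 in Molm13, and rose from 14.3 and 14.8 to 16.6 and 15.8 in THP1, with no overlap in either line. By edgeR's quasi-likelihood test, the log2 fold change was −0.20 (SE 0.065, adjusted p = 0.00675) in Molm13 and 0.15 (SE 0.043, adjusted p = 0.00762) in THP1. Each of these calls rested on single libraries. The Molm13 call was lost without shCtrl replicate 2 (−0.14, adjusted p = 0.111), without shPRMT9 replicate 2 (−0.17, adjusted p = 0.0819) and with DESeq2 (−0.20, adjusted p = 0.109). The THP1 call was lost without shCtrl replicate 1 (0.12, adjusted p = 0.109) or shPRMT9 replicate 1 (0.11, adjusted p = 0.0806). JAK2 (ENSG00000096968) spans 4984390 to 5128183 on the plus strand of chromosome 9. Of the 24 annotated genes whose spans overlap 1 of the 9 genes, 12 lie over JAK2, most of them pseudogenes. Of these 24 genes, 4 exceeded 100 reads in a library (LRP1 and NAB2 over STAT6, RAVER2 over JAK1 and PDSS1P1 over JAK2), and the others had at most 77.

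**Figure D3:**
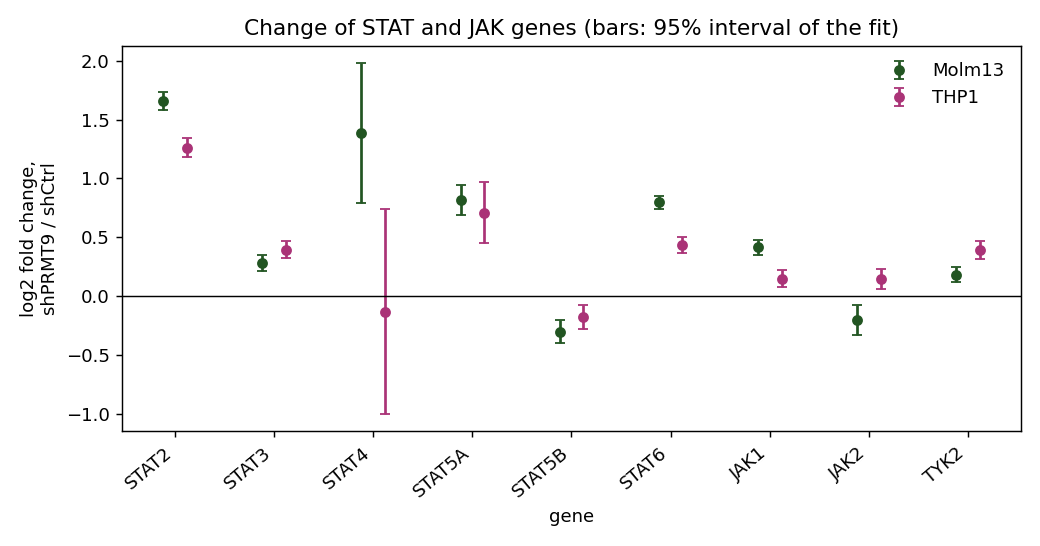
Log2 fold change of shPRMT9 against shCtrl for each gene, Molm13 in green and THP1 in purple; points are edgeR estimates and bars their 95% intervals. STAT2 is highest in each line (1.65 and 1.26), STAT5B is below 0 in both, JAK2 is on opposite sides of 0, and the STAT4 interval in THP1 runs from −0.99 to 0.74.

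The difference between the lines was tested on its own, as the THP1 effect minus the Molm13 effect in 1 fit of the 8 libraries. In that fit 3 of 9 genes had a higher effect in THP1 (STAT3, JAK2 and TYK2), 4 a lower one (STAT2, STAT4, STAT6 and JAK1), and STAT5A and STAT5B were not called. Over all 19288 genes tested, 22.8% had a higher and 19.4% a lower effect in THP1. The JAK2 effect differed by 0.36 (SE 0.078) on the log2 scale with an adjusted p of 5.59e-05 in edgeR's quasi-likelihood test, and its call held in all 14 alternatives, with values from 0.26 to 0.39. TYK2 differed by 0.22 (SE 0.051, adjusted p = 0.000146, same edgeR test). STAT2 differed by −0.38 (SE 0.057, adjusted p = 1.51e-08), STAT6 by −0.35 (SE 0.044, adjusted p = 2.89e-11) and JAK1 by −0.25 (SE 0.049, adjusted p = 6.93e-06) in that edgeR test. STAT4 differed by −1.50 (SE 0.55, adjusted p = 0.0200, edgeR), on few reads. This call was lost with DESeq2 (adjusted p = 0.10) and without Molm13 shCtrl replicate 1 (−1.11), Molm13 shPRMT9 replicate 2 (−1.28), THP1 shCtrl replicate 1 (−1.26) or THP1 shPRMT9 replicate 1 (−1.40). STAT3 differed by 0.13 (SE 0.049, adjusted p = 0.0231, edgeR), and this call was lost in 12 of 14 alternatives: when any 1 of the 8 libraries was left out (0.068 to 0.12), with DESeq2 (0.11), with other scalings of depth (0.11 and 0.086) and with no filter on low counts (0.12, adjusted p = 0.0548). The 95% interval of the difference was −0.37 to 0.18 for STAT5A and −0.01 to 0.28 for STAT5B, so differences inside those ranges remained possible.

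The lines also differed in how much of each gene they carried in control cells. The line, its count table and its handling cannot be told apart in this comparison. In shCtrl cells 3 of 9 genes were higher in THP1 (STAT2, STAT3 and JAK2), 5 were lower (STAT5A, STAT5B, STAT6, JAK1 and TYK2) and STAT4 was not called, beside 40.1% of all genes tested called higher and 42.7% lower in THP1. JAK2 was 2.79-fold higher in THP1 (log2 1.48, SE 0.052, adjusted p = 3.74e-45, edgeR's quasi-likelihood test). STAT5A was the furthest below Molm13, at a ratio of 0.259 (log2 −1.95, SE 0.10, adjusted p = 2.99e-32, same test). The STAT4 difference in level was −0.73 (95% interval −1.52 to 0.06), and was called (−1.15, adjusted p = 0.0189 in edgeR's test) without Molm13 shCtrl replicate 1. JAK2 made up 9.76% and 10.4% of the summed RPKM of JAK1, JAK2 and TYK2 in Molm13 shCtrl libraries and 29.0% and 30.2% in THP1 shCtrl libraries.

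Per length, the order of levels in Molm13 shCtrl was STAT6, JAK1, TYK2, STAT3, STAT5B, STAT2, JAK2, STAT5A and STAT4. In Molm13 shPRMT9 STAT2 stood between JAK1 and TYK2, and STAT5A stood above JAK2. In THP1 shCtrl the order was STAT6, JAK1, STAT3, JAK2, TYK2, STAT2, STAT5B, STAT5A and STAT4. In THP1 shPRMT9 it was STAT6, STAT2, STAT3, JAK1, TYK2, JAK2, STAT5B, STAT5A and STAT4. No gene overlapped its neighbour in these orders, in that the RPKM ranges of the 2 libraries were separate in each of the 4 groups. STAT2 made up 13.4% and 12.5% of the summed RPKM of the 6 STAT genes in Molm13 shCtrl and 24.5% and 23.9% in shPRMT9. In THP1 its share was 18.3% and 18.5% against 29.7% and 29.9%. The STAT5B share was lower in the same libraries, going from 14.4% and 15.4% to 7.39% and 7.05% in Molm13 and from 11.6% and 12.2% to 7.08% and 7.13% in THP1. STAT6 took 46.4% in both Molm13 shCtrl libraries and 47.9% and 48.1% in shPRMT9, whereas in THP1 it took 39.2% and 39.4% against 35.5% and 36.1%. A share also moves with the other genes in the sum. STAT5B itself went to 0.81-fold in Molm13 and 0.89-fold in THP1, and STAT6 rose 1.35-fold in THP1 although its share fell.

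The genes around the STAT and JAK genes were read from lists of ligands, receptors, inhibitors and targets. The counts below stand beside 33.4% of all genes tested called higher and 33.5% lower in Molm13, and 19.0% and 18.6% in THP1. A gene with few reads in one group was tested only when the other group had enough, so the filter fixed its direction. EBI3 and IER3 in THP1 and F13A1 in Molm13, for example, passed through their shPRMT9 reads and are counted as higher. In Molm13 the inhibitors and the STAT5 targets lay near those shares, and nothing is read from their counts. Of 16 cytokine ligands only 3 had enough reads to be tested in Molm13 and 5 in THP1. IL12A, a subunit of interleukin-12, fell in Molm13 (log2 −0.72, from 56 and 56 reads to 33 and 35), and EBI3, a subunit of interleukin-27, rose in THP1 from 9 and 2 reads to 47 and 72. Of the receptor chains tested, 16 of 20 were higher and 1 lower in Molm13, and 12 of 25 higher and 6 lower in THP1, with medians of 0.67 and 0.28. CSF3R, the G-CSF receptor, rose by 1.24 in Molm13 and had a value of −0.09 in THP1. IFNGR2 rose by 0.83 in each line, IL10RA by 1.44 and 1.11, and IL7R by 1.21 and 1.31. IFNGR1 (0.16 and 0.67), IL6ST, the gp130 chain (0.21 and 0.64), and IL15RA (0.27 and 2.15) rose in both lines. IFNAR1, the chain that binds TYK2, rose by 0.62 in Molm13 and 0.28 in THP1. IFNAR2, which binds JAK1, was at 0.03 in Molm13, not called, and rose by 0.28 in THP1. The 6 receptor chains lower in THP1 were IL3RA (−0.64, a DEG), IL2RB (−1.47), EPOR (−0.39), IL13RA1 (−0.36), CSF2RB (−0.20) and IL12RB2 (−0.18). They were named after their values were seen, and IL2RB did not pass 1 RPKM there.

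Among 7 nuclear partners, IRF9 rose from 37 and 35 reads to 124 and 147 in Molm13 (log2 1.91, SE 0.18, adjusted p = 8.32e-13) and from 159 and 177 to 235 and 266 in THP1 (log2 0.67, SE 0.12, adjusted p = 2.77e-05) in edgeR's quasi-likelihood test. KPNA1, an importin that carries STATs, fell by 0.84 in Molm13 and had a value of 0.05 in THP1. Of the 20 inhibitors, 8 were higher and 9 lower in Molm13 and 7 higher and 6 lower in THP1, with medians of −0.003 and 0.06. USP18, which blocks IFNAR2 signalling, rose by 0.77 in Molm13 and 3.01 in THP1. SOCS3 rose by 0.88 and 0.66, and the adaptor SH2B3 by 0.94 and 1.60. SOCS1 rose by 0.71 in Molm13 and was at 0.41 in THP1, not called. PTPRC and PTPN6, a pair of phosphatases, rose by 0.90 and 0.61 in Molm13, whereas SOCS4 fell by 1.01 there. CISH, a STAT5 target and inhibitor, was not called in either line (0.12 and −0.17). The phosphatase PTPN2 rose by 0.13 in Molm13 and was at 0.12 in THP1, not called.

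All 20 targets of ISGF3, the STAT2 and IRF9 complex, were higher in both lines, with medians of 3.11 and 2.80. OAS2 rose by 4.11 and 2.62, IFIT2 by 3.85 and 2.31, IFIT1 by 4.04 and 3.28 and OAS1 by 3.16 and 2.46 in Molm13 and THP1. IFI44L (5.81 and 4.61), IFI27 (4.98 and 5.32), OAS3 (3.06 and 3.24) and IFI6 (3.41 and 3.56) were also higher in each. Of the 20 targets, 18 were DEGs in Molm13 and 20 in THP1, as IFI27 and MX1 did not pass 1 RPKM in Molm13. Both were low in Molm13, so the filter on low counts may have fixed their direction there. Their Molm13 values are therefore no evidence of direction. The ISGF3 list, like the other lists, was chosen with earlier results of these data known. The counts of the lists are therefore not independent evidence of direction. Of 14 STAT3 targets tested in each line, 11 and 10 were higher and 2 and 1 lower (medians 0.68 and 0.52), with VEGFA at 0.70 and 0.84, FOS at 0.76 and 1.02, JUNB at 0.66 and 0.41 and BCL3 at 1.56 and 1.84. TIMP1 rose by 0.62 in Molm13, and IER3 rose by 3.33 in THP1 on 4 and 8 reads in shCtrl. Of STAT5 targets, 5 were higher and 3 lower of 11 in Molm13 and 3 higher and 1 lower of 10 in THP1, with CDKN1A (0.65 and 1.29) and BCL6 (0.88 and 0.80) higher in both and PIM2 higher in Molm13 (0.68). CDKN1A also answers to p53, and BCL6 is on the STAT3 list as well. Other genes, such as IL4R, SOCS1, SOCS3, USP18, PIM1 and CISH, are shared between lists too, so the list counts are not separate observations. Of STAT6 targets, 6 of 7 were higher in Molm13 and 4 of 10 higher and 2 lower in THP1. The lectin CD209 rose by 0.91 and 1.84, FCER2 by 1.41 and 0.90 and CLEC10A by 1.30 in Molm13, whereas F13A1, a macrophage transglutaminase, rose by 3.59 in Molm13 from 7 and 5 reads and fell by 1.25 in THP1. Of STAT4 targets 3 of 4 were higher and 1 lower in Molm13, and 3 of 5 higher and 1 lower in THP1. MYD88 rose by 0.36 and 1.09, and HLX rose by 0.84 in Molm13 and fell by 0.15 in THP1. IL18R1, named after its values were seen, fell by 1.70 in Molm13, where it did not pass 1 RPKM. In THP1 it was at 0.14, not called.

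**Figure D4:**
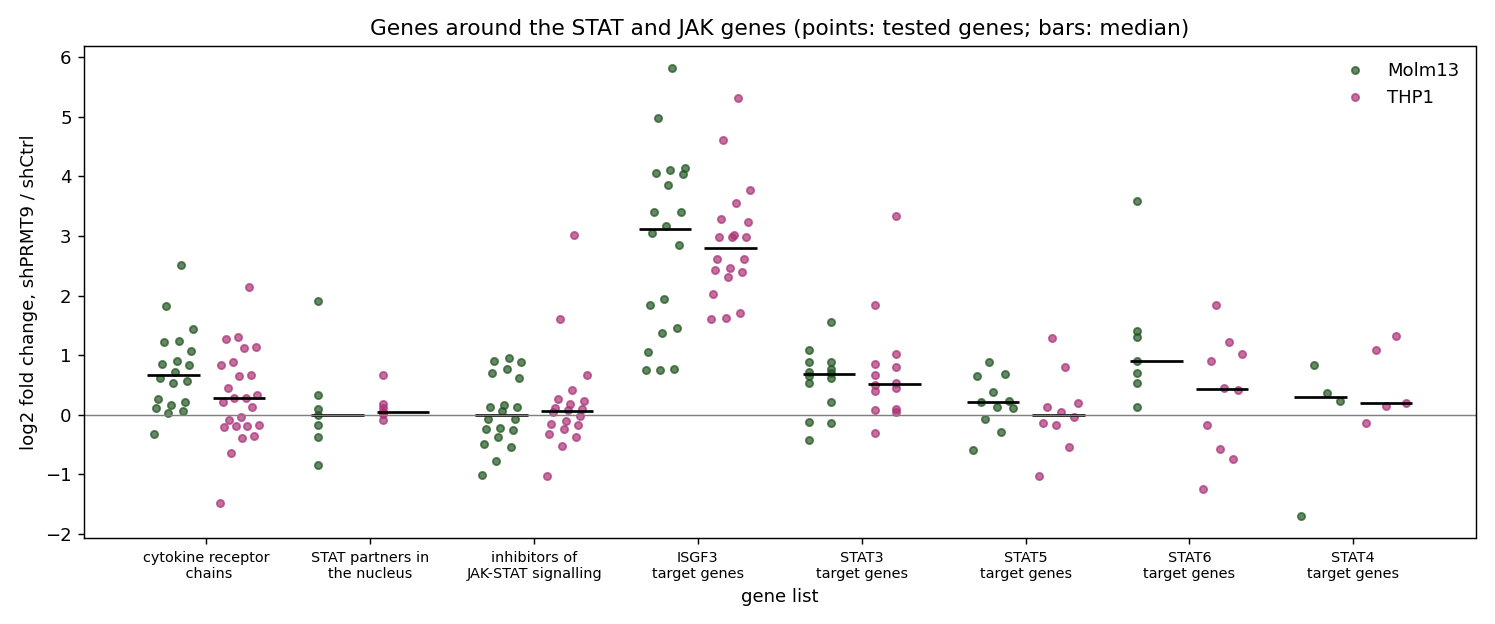
Log2 fold change of shPRMT9 against shCtrl for each tested gene of the lists around the STAT and JAK genes, Molm13 in green and THP1 in purple, with a bar at the median of the list. All ISGF3 targets lie above 0 in both lines (medians 3.11 and 2.80), whereas the inhibitors spread to both sides of 0 (medians −0.003 and 0.06).

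The genes whose levels ran closest to each STAT or JAK gene were named by Pearson's correlation of log2 CPM over the 8 libraries among 19277 genes. Genes of the STAT and JAK families and genes without a symbol were left out of this ranking. The 27 correlations, 3 per gene, lay between 0.978 and 0.999. They are a description with no test, since the 8 points share 2 lines and 2 treatments. STAT2 ran with NFKB2, TYROBP and NBR1, STAT3 with APOL1, BATF2 and UBE2L6, and STAT4 with HCAR2, RAB3D and SHF. STAT5A ran with CARD6, JUNB and GSTK1, STAT5B with MTCO1P40, PDIK1L and C2CD5, and STAT6 with TLN1, UBE3B and ITGB2-AS1. JAK1 ran with TMEM69, STARD8 and LY86, JAK2 with PDXDC1, ATP5H and EVI5L, and TYK2 with MCTP1, KIAA1551 and PMP22. Genes alike in pattern need not be alike in size of change: NFKB2 rose by 2.89 in Molm13 and 2.04 in THP1, and NBR1 by 0.42 and 0.30.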

How the data were processed

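RNA was isolated with TRIzol, libraries were made with the Kapa mRNA HyperPrep kit and sequenced on an Illumina HiSeq system. Per the submitters' processing notes, reads were handled with TopHat2 (2.0.8), HTSeq (0.11.2) and edgeR (3.30.3) on hg38. The annotation and strand setting were not given in the sources used here. The values the authors deposited are raw counts per gene, in 1 table per line. From these counts, each line was fitted alone with edgeR (4.0.16): TMM scaling, filterByExpr, quasi-likelihood test and Benjamini-Hochberg adjustment over all genes tested. Differences between lines came from 1 fit of all 8 libraries. RPKM used exon lengths from the Molm13 table. SEs were taken from each log2 fold change and its F statistic. Code was tested on simulated data. Named genes were the 9 members, PRMT9, up to 4 DEGs per list and line by p-value, 8 regulators (IRF9, SOCS1, SOCS3, CISH, IFNAR1, IFNAR2, PTPN2 and USP18), the 3 genes most like each member, and overlapping genes, besides the cell markers. The members and lists were chosen with earlier results of these data known. The alternatives were other scalings, no filter, DESeq2 (1.42.0), limma (3.58.1) voom, a replicate block, other limits and leaving out each library.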

Additional observations from a re-analysis of the deposited data

Results flagged for a closer look

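In 7 of the 9 genes the shPRMT9 effect differed between the lines by the test of the difference itself (edgeR's quasi-likelihood test, FDR below 0.05), given as the THP1 minus the Molm13 log2 effect. Over all 19288 genes in that test, 22.8% were called with a higher and 19.4% with a lower effect in THP1. The difference was −0.379 for STAT2, −0.353 for STAT6 and −0.253 for JAK1, where the rise was larger in Molm13. It was 0.223 for TYK2, where the rise was larger in THP1, and 0.359 for JAK2, whose effects had opposite signs. It was 0.131 for STAT3 and −1.50 for STAT4, and these 2 calls were lost in several alternatives, STAT3 in 12 of 14. With 2 libraries per group no library could be examined as an outlier.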

How the results depend on the processing

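With 2 libraries per group and between 18720950 and 27356870 reads each, small changes and low genes such as STAT4 were the least certain. Over the 4 comparisons, 412 of 441 values of the 9 genes under the alternatives kept their direction and their side of the threshold. Of the others, 26 were no longer called, 1 became called and 2 turned in sign. STAT4 in THP1 with DESeq2 had no adjusted p and was counted among the 412 as not called. The STAT3 difference between the lines was no longer called in 12 of 14. With DESeq2, the genes called lower numbered 1 in Molm13 in place of 2, and 0 in THP1 in place of 1; DESeq2 gave STAT5B in THP1 a log2 fold change of −0.17 with an adjusted p of 0.0724. At a fold limit of 2, 1 gene was a DEG with a higher level in each line in place of 3 and 2, with no share over all genes given for that limit. Leaving out 1 library at a time gave 1 to 2 genes called lower in Molm13, 0 to 1 called lower in THP1 and 1 to 2 DEGs with higher levels in THP1. STAT4 in THP1 ranged from −0.379 without THP1 shCtrl replicate 2 to 0.148 without THP1 shCtrl replicate 1, and the STAT5A difference between the lines from −0.358 to 0.122 without the same libraries; neither was called in either form, and the cause was not tested. The replicate numbers were only shared: the deviations of same-numbered libraries correlated at −0.040 in Molm13 and −0.049 in THP1. A fit with the replicate block called 7 genes higher and 2 lower in Molm13 and 7 higher and 1 lower in THP1, the same numbers as without it.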
